A study of Mus musculus with 18 samples.

Results

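Ccn1, Ccn2, Thbs1, Plaur, Adamts1, Adamts4, Adamts9 and Timp1 encode secreted or cell-surface proteins that act on the extracellular matrix. They were chosen by name, with earlier results of these data known. Every probe set that the array annotation gives to a single one of these symbols was taken. That made 8 of the 18193 genes on the array and 15 of its 45037 tested probe sets. Ccn1 had 4 probe sets, Adamts9 had 3, Thbs1 and Adamts4 had 2 each, and Ccn2, Plaur, Adamts1 and Timp1 had 1 each. Where a gene had several, the one with the highest mean over all arrays stands for the gene unless another is named.

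RNA of whole mouse hearts was hybridized to 18 Affymetrix whole-genome mouse arrays. The mutant hearts came from mice deficient in Kir6.1, the pore subunit, encoded by Kcnj8, of the ATP-sensitive potassium channel of vascular smooth muscle, and the other hearts from control mice. The groups were mutant and control hearts taken 3 h after PBS, 30 min after lipopolysaccharide (LPS, 0.5 µg in PBS) and 3 h after LPS, with 3 arrays in each of the 6 groups. How the gene was disrupted, the strain, the age and the sex are not stated in the labels. The titles number the hearts in each group without saying that each is a separate animal, so the p-values cover the array-to-array spread, part of which may be technical.

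Matricellular proteins are secreted into the matrix, where they signal to cells through integrins and other receptors instead of building fibres. Ccn1 and Ccn2 are CCN family members known as fast targets of mechanical, growth factor and YAP/TEAD signals, and Thbs1 is thrombospondin-1, which binds CD47 and can activate latent TGF-beta. Plaur is the receptor of urokinase and focuses plasminogen activation on the cell surface. Adamts1, Adamts4 and Adamts9 are secreted metalloproteinases that cut proteoglycans such as versican and aggrecan, and Timp1 is an inhibitor of matrix metalloproteinases that rises in acute inflammation. The comparisons ask how a heart deficient in Kir6.1 answers endotoxin in these genes. In whole-heart RNA, fewer cells of a type and less RNA per cell cannot be told apart.

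Values are log2 signals after RMA, changes are log2 differences, and a change was called when its limma p-value, adjusted over all 45037 probe sets, was under 0.05. Kcnj8 read 4.35 to 5.36 on the mutant arrays and 8.35 to 8.90 on the control arrays. The heart label held: all 6 cardiomyocyte markers, Myl2 and Myh6 among them, lay far above the median of all probe sets. Mutant LPS 3 h replicates 1 and 3 stood apart, since their Gapdh and Actb control probes read 1.09 to 1.37 more at the 3' end than at the 5' end, a gap that grows with shortened RNA, against 0.13 to 0.44 on the other 16 arrays. Both were hybridized on a day of their own. All LPS 30 min arrays shared another day, so 30 min cannot be told apart from the hybridization day in any comparison with PBS or 3 h. The calls on mutant LPS 3 h hearts are therefore also given without those 2 arrays. Mutant LPS 3 h replicate 2 is then the only one left and is assumed to vary like the other groups. In the fit with array weights it had the lowest weight of all arrays, 0.115, against 0.253 and 0.294 for replicates 1 and 3. It was also the only array of its lot, so results without those 2 arrays rest on this single array.

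Promoter sequences were available for 5 of the 8 genes from RefSeq (GRCm38.p6), not for Ccn2, Thbs1 or Adamts4. The windows of Ccn1, Adamts1 and Timp1 are shown because these 3 genes carried the largest changes. Each holds the 250 bases before the start used in the table, which for these 3 is the outer end of the annotated gene, read 5′ to 3′ on the gene's strand, with capitals for a motif match. They lie at chr3:145649986-145650235 (minus strand), chr16:85803114-85803363 (minus strand) and chrX:20869916-20870165 (plus strand).
Ccn1: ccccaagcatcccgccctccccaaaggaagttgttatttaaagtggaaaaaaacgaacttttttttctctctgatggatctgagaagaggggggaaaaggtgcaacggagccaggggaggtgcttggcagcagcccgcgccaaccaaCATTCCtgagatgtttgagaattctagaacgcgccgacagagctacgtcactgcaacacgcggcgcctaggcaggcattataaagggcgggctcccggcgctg
Adamts1: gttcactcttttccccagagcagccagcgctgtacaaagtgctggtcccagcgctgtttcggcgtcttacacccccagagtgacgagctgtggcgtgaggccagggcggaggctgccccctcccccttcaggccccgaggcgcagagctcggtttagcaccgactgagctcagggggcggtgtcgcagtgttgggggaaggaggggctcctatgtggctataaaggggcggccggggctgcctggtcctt
Timp1: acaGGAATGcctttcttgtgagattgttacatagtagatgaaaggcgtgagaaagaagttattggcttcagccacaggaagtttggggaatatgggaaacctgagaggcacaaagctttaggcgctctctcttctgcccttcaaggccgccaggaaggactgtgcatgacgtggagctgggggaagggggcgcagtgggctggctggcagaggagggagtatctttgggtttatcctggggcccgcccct

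The motifs searched, on both strands, were the CRE (TGACGTCA), AP-1 (TGANTCA) and TEAD (GGAATG) sites and, by name, the SRF CArG box and the NF-kB site. Ccn1 held a TEAD match on the opposite strand, 103 to 98 bases before the start. Timp1 held a TEAD match on its own strand, 247 to 242 bases before the start, and Adamts1 held no match to any of the 5 motifs. The starts used for Plaur and Adamts9, not shown, lie inside the annotated gene. Plaur held an AP-1 match 69 to 63 bases before the start and Adamts9 an NF-kB match 15 to 6 bases before it. Among 32851 windows of the same length in the table, 12.6% held the TEAD letters, 6.75% the AP-1 letters, 7.25% the NF-kB site, 1.55% the CRE and 1.47% the CArG box. A match is a description of letters and shows no binding.

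At 3 h after LPS, Ccn1, Ccn2, Adamts1 and Timp1 were called higher in mutant hearts than in PBS-treated mutant hearts. Thbs1 and Adamts9 had lower means, but 0 of the 8 genes were called lower. Over all genes 9.9% were higher and 16.1% lower in that comparison, so the 4 higher genes stand against a background in which many genes moved, more of them downward. The arrays did not overlap for 5 of the 8, these 4 and Plaur, as for 16.5% of all genes on the higher side. The members' median change was 0.52, beside a median of 0.07 over all genes. Without the 2 arrays that stood apart, 3 members were called higher (Ccn1, Adamts1 and Timp1), with 5.29% of all genes higher. On arrays of the first hybridization day alone, Ccn1 and Adamts1 were called, with 2.03% of all genes higher. In control hearts 0 of 8 members were called at 3 h, where 0.638% of all genes were higher and 0.137% lower. By limma's unadjusted p 2 members, Adamts9 and Timp1, were under 0.05 there, as were 11.3% of all genes, and the alternatives called 0 to 2. The arrays did not overlap for 3, Thbs1, Adamts9 and Timp1, as for 11% of all genes on the higher side. The members' median in controls was 0.13, beside -0.01 over all genes.

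**Figure D1:**
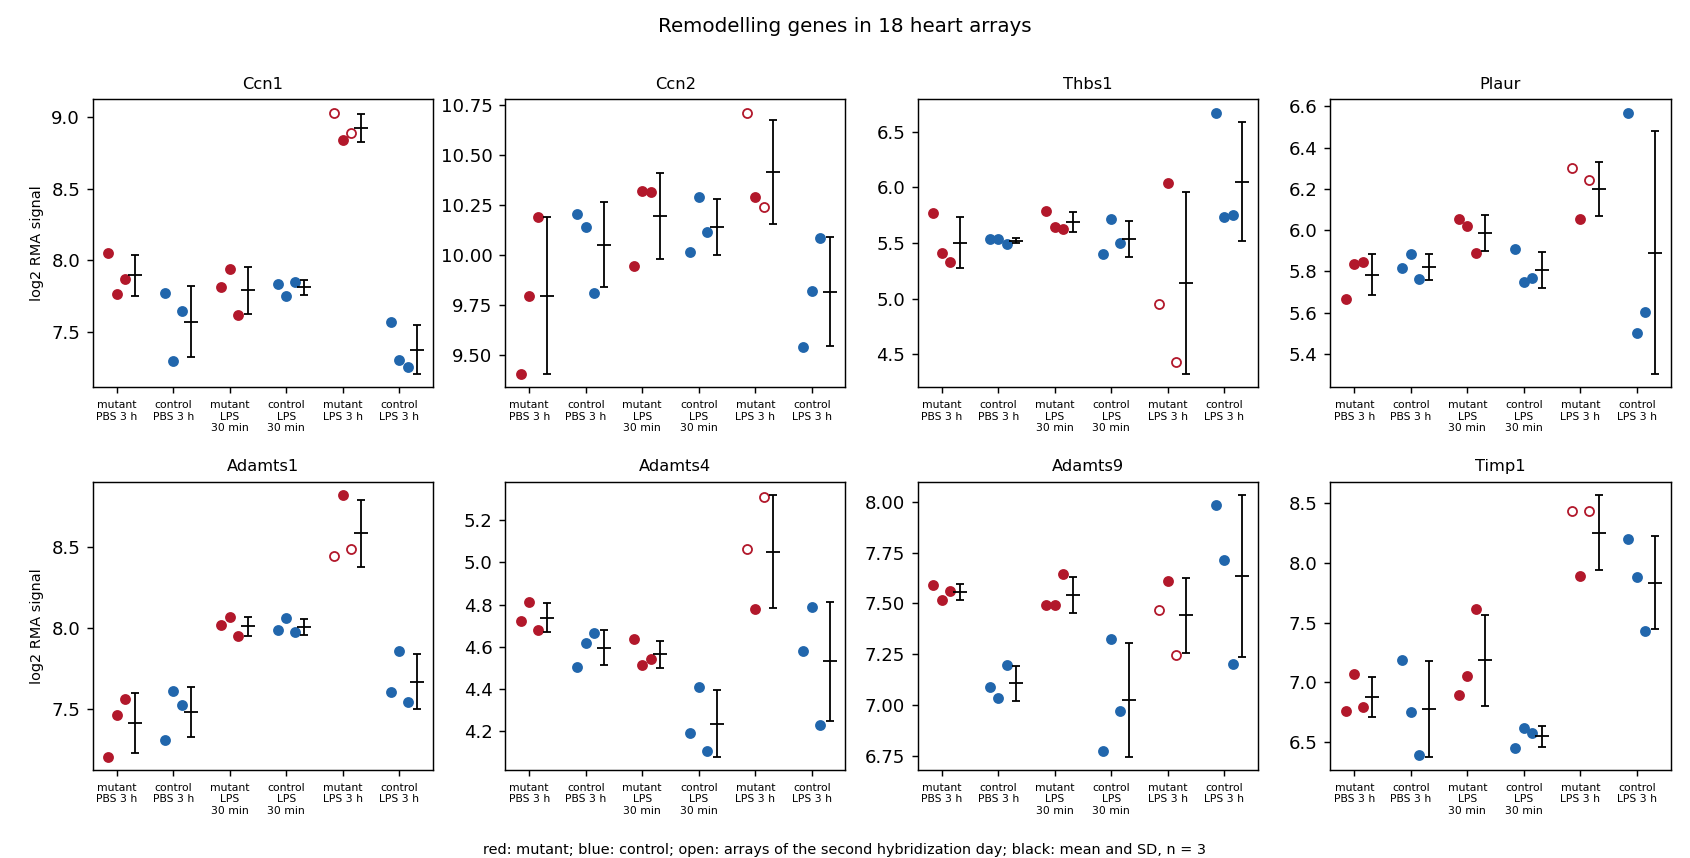
Log2 RMA signal (vertical axes, each with its own scale) of the highest-mean probe set of each of the 8 genes on all 18 arrays, by genotype and condition, with mutant hearts left of control hearts. Points are arrays, open points are the 2 mutant LPS 3 h arrays hybridized on a day of their own, and black marks are means with SD. Ccn1 and Adamts1 sit highest in mutant hearts 3 h after LPS, open points or not.

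Ccn1, the CCN protein that binds integrins on endothelial cells and fibroblasts, showed the clearest genotype difference. Its signal was 9.03, 8.84 and 8.89 in mutant LPS 3 h hearts, against 8.05, 7.76 and 7.87 in mutant PBS hearts. In control hearts it was 7.57, 7.30 and 7.25 at 3 h after LPS, against 7.77, 7.30 and 7.65 after PBS. Every mutant LPS 3 h array lay above every other array for this gene. The change over PBS was 1.03 in mutants (SE 0.13, 2.04-fold, limma adjusted p = 0.000378) and -0.20 in controls (adjusted p = 0.659).

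At 3 h after LPS, Ccn1 averaged 8.92 ± 0.10 in mutant hearts and 7.38 ± 0.17 in control hearts (SD, n = 3 each), a difference of 1.54 (2.92-fold, adjusted p = 2.93e-05 by limma). The LPS effect itself differed between genotypes by 1.22 (SE 0.18, adjusted p = 0.0261). With mutant LPS 3 h replicates 1 and 3 left out, these values were 0.95 over mutant PBS (adjusted p = 0.00475), 1.47 over control LPS 3 h (adjusted p = 0.000575) and 1.14 for the difference of effects (adjusted p = 0.0246). On arrays of the first hybridization day alone, which hold the same single mutant LPS 3 h array, the difference of effects was 1.14 again by construction. It was not called there. It was also not called without control LPS 3 h replicate 3, control PBS replicate 1 or 3, or mutant PBS replicate 2 or 3, where it was 1.12 to 1.21 with adjusted p of 0.0518 to 0.0894.

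The remaining probe sets of Ccn1 did not all behave alike. The probe set 1438133_a_at read 7.59, 8.18 and 7.49 in mutant LPS 3 h hearts, against 6.91, 6.67 and 6.89 in mutant PBS hearts and 6.53, 6.65 and 6.34 in control LPS 3 h hearts. It too was higher in mutant LPS 3 h hearts than after PBS (0.93, limma adjusted p = 0.002) and than in controls (1.25, adjusted p = 0.00088), and its difference of effects was 1.11 (adjusted p = 0.066). Leaving out mutant replicates 1 and 3 gave 1.36, 1.68 and 1.54 for these, all called (adjusted p = 0.000208, 0.000057 and 0.00197). The other two, 1442340_x_at and 1457823_at, had changes of -0.27 (adjusted p = 0.60) and 0.06 (adjusted p = 0.91) over mutant PBS, or 0.15 and 0.65 without those 2 arrays (adjusted p = 0.892 and 0.338). Both carry the same accession in the annotation, and on both, mutant PBS replicate 2 was the highest of the 18 arrays. Averaged over its 4 probe sets, the change of Ccn1 over mutant PBS was 0.44 and was not called (adjusted p = 0.0691), nor was its difference of effects of 0.47 (adjusted p = 0.243).

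**Figure D2:**
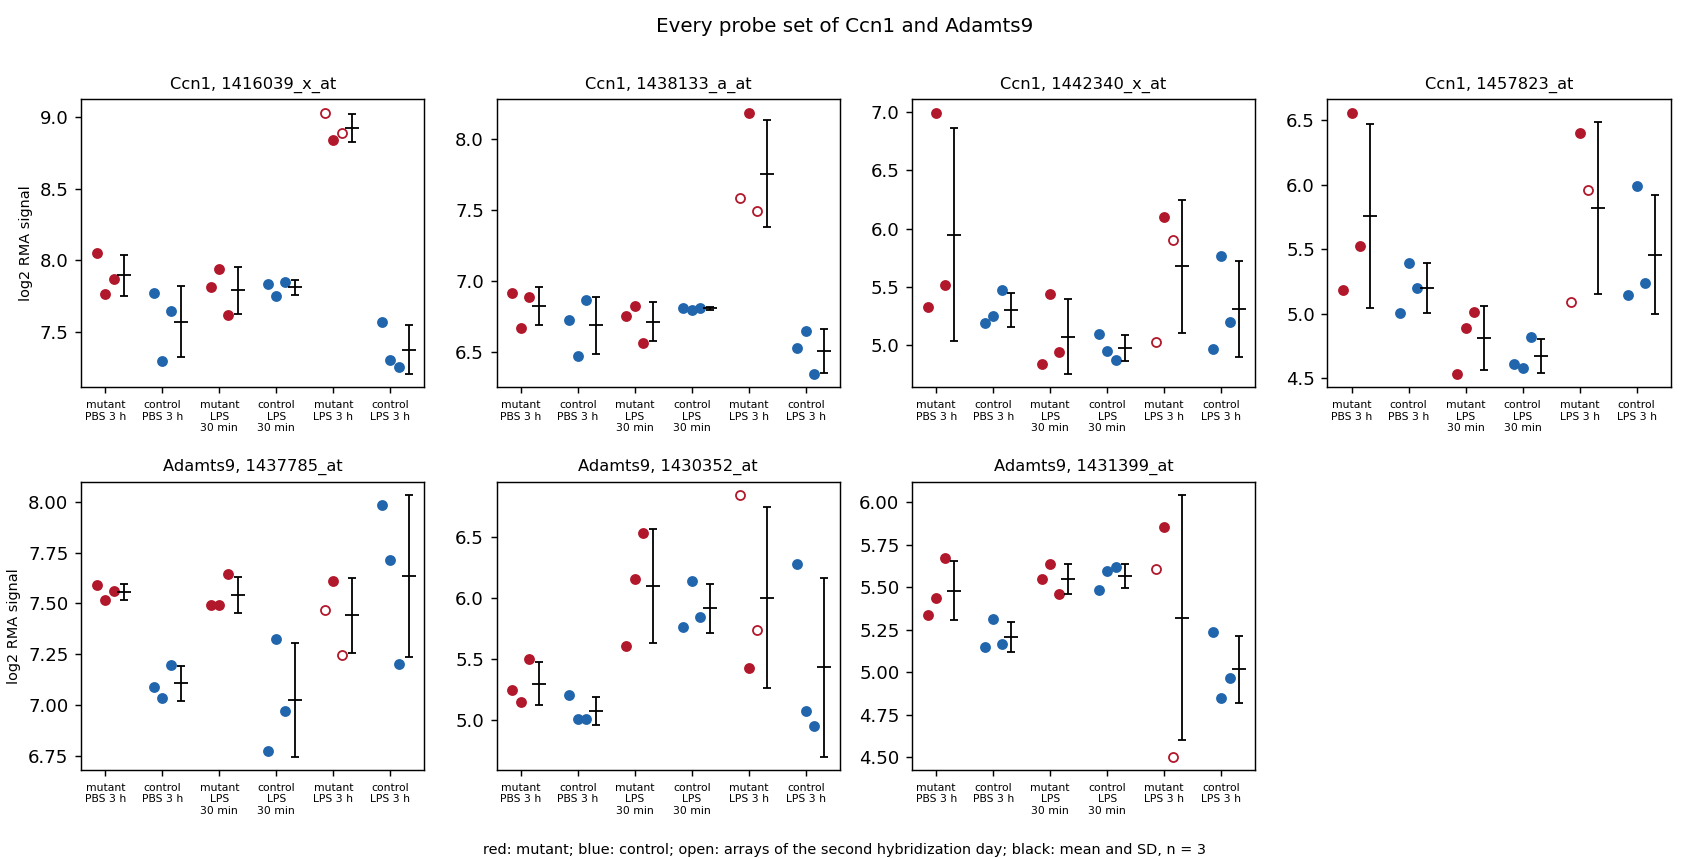
Log2 RMA signal of every probe set of Ccn1 and Adamts9, by genotype and condition, mutant left of control. Open points are the 2 arrays of the second hybridization day and black marks are mean and SD. For Ccn1 the mutant LPS 3 h arrays rise above the rest on 1416039_x_at and 1438133_a_at but not on the other two.

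Ccn2, the family member linked to fibrosis, was called higher in mutant LPS 3 h hearts, but the call depended on single arrays. It read 10.71, 10.29 and 10.24 in mutant LPS 3 h hearts, against 9.41, 9.80 and 10.19 in mutant PBS hearts. In control hearts it read 9.54, 9.82 and 10.09 at 3 h, against 10.20, 10.14 and 9.81 after PBS. Mutant LPS 3 h arrays lay above all mutant PBS and control LPS 3 h arrays, closely so for 1 PBS array. Ccn2 was higher in mutant LPS 3 h hearts than after PBS (0.62, limma adjusted p = 0.0361) and than in control LPS 3 h hearts (0.60, adjusted p = 0.0448). Once mutant replicates 1 and 3 were left out, the values were 0.49 and 0.47 (adjusted p = 0.256 and 0.356). Leaving out only mutant LPS 3 h replicate 1 or 3 or mutant PBS replicate 1 or 2 also ended the call over PBS (0.42 to 0.70, adjusted p = 0.0641 to 0.160). Leaving out mutant LPS 3 h replicate 1 or 3 or control LPS 3 h replicate 1 or 2 ended the call over controls (0.45 to 0.68, adjusted p = 0.0671 to 0.185). Its difference of effects was 0.85 (adjusted p = 0.124), and 0.91 without mutant LPS 3 h replicate 2 (adjusted p = 0.0342), a fit that called this difference for 23.6% of all probe sets, against 0.104% with all arrays.

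Thbs1, released by platelets and activated cells, was the 1 member called lower in mutant than in control hearts at 3 h after LPS. It read 4.95, 6.04 and 4.43 in mutant LPS 3 h hearts, against 6.67, 5.73 and 5.75 in control LPS 3 h hearts. The difference was -0.91 (SE 0.30, limma adjusted p = 0.0477), and the groups overlapped, since mutant replicate 2 lay above control replicates 2 and 3. The 2 low arrays are those hybridized on a day of their own, and without them the difference was -0.02 (adjusted p = 0.985). It was also not called without control LPS 3 h replicate 1 (-0.60, adjusted p = 0.227) or 3 (-1.06, adjusted p = 0.0546), or without mutant replicate 1 alone (-0.82, adjusted p = 0.102) or 3 alone (-0.56, adjusted p = 0.243). Over PBS the change was -0.36 in mutants (adjusted p = 0.400) and 0.53 in controls (adjusted p = 0.583). Without both low arrays the change in mutants was 0.53 as well (adjusted p = 0.239). Leaving out mutant replicate 2, so that only the 2 low arrays remained, gave -0.81 over mutant PBS (adjusted p = 0.0132) and a difference of effects of -1.35 (adjusted p = 0.00477). That fit called 32.8% of all probe sets over mutant PBS, against 21.1% with all arrays, and 23.6% for the difference of effects, against 0.104%. In controls the 3 h arrays did not overlap with the PBS arrays, which read 5.53, 5.53 and 5.49. The dimmer probe set 1450377_at differed by -0.28 between mutant and control LPS 3 h hearts (adjusted p = 0.17), and by -0.19 without both low arrays (adjusted p = 0.605).

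Plaur passed no test in the main fit to all arrays. It read 6.30, 6.05 and 6.24 in mutant LPS 3 h hearts, against 5.67, 5.84 and 5.85 in mutant PBS hearts, without overlap (change 0.42, limma adjusted p = 0.131). With quantile normalization of all arrays that change was 0.60 and was called (limma adjusted p = 0.0344), where 18.9% of all probe sets were. In control LPS 3 h hearts it read 6.57, 5.50 and 5.61, so 1 control array lay above all others and the remaining 2 below every PBS array. The mutant minus control difference at 3 h was 0.31 (adjusted p = 0.276), and 0.65 without that 1 high control array, replicate 1 (adjusted p = 0.01), where 5.47% of all probe sets were called. Over mutant PBS and over control LPS 3 h it was 0.27 and 0.16 once mutant replicates 1 and 3 were left out (adjusted p = 0.597 and 0.815).

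Adamts1, a versican-cleaving protease made by endothelium and other stromal cells, differed between genotypes in time course. In mutant hearts it read 7.21, 7.47 and 7.57 after PBS, 8.02, 8.07 and 7.95 at 30 min after LPS, and 8.45, 8.82 and 8.49 at 3 h. In control hearts it read 7.31, 7.61 and 7.53 after PBS, 7.99, 8.07 and 7.98 at 30 min, and 7.61, 7.86 and 7.55 at 3 h. Both genotypes thus had almost the same 30 min mean, 8.01 ± 0.06 in mutants and 8.01 ± 0.05 in controls (SD, n = 3 each). At 3 h every mutant array was above every 30 min array and every control array was below.

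The change of Adamts1 from PBS at 3 h was 1.17 in mutants (SE 0.12, 2.26-fold, limma adjusted p = 0.000102) and 0.19 in controls (adjusted p = 0.661). Mutant LPS 3 h hearts exceeded control LPS 3 h hearts by 0.92 (SE 0.12, 1.89-fold, adjusted p = 0.00139). The difference of effects was 0.99 (SE 0.18, adjusted p = 0.0451). In the fit that left out mutant replicates 1 and 3 the values were larger, at 1.41 over PBS (adjusted p = 0.00014), 1.15 over control LPS 3 h (adjusted p = 0.00115) and 1.22 for the difference of effects (adjusted p = 0.00792). The difference of effects did not hold its call on first-day arrays alone (1.22, adjusted p = 0.101). Nor did it hold in 9 of the 12 fits that left out 1 of the arrays compared, those without control LPS 3 h replicate 1 or 3, mutant LPS 3 h replicate 3 or any of the 6 PBS arrays, where it was 0.88 to 1.07 with adjusted p of 0.0621 to 0.147.

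At 30 min the change of Adamts1 over PBS was 0.60 in mutants (SE 0.12, 1.52-fold, limma adjusted p = 0.122) and 0.53 in controls (1.44-fold, adjusted p = 0.14). Neither was called, although the arrays did not overlap in either genotype, as was the case for 12.3% of all genes higher at 30 min in mutants and 16.2% in controls. In the fit without mutant LPS 3 h replicates 1 and 3, which takes its error from fewer arrays, both passed (adjusted p = 0.0144 and 0.0208), where 0.374% and 1.62% of all genes were higher. Between 30 min and 3 h it was higher by 0.57 in mutants (adjusted p = 0.0057) and differed by -0.34 in controls (adjusted p = 0.209).

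**Figure D3:**
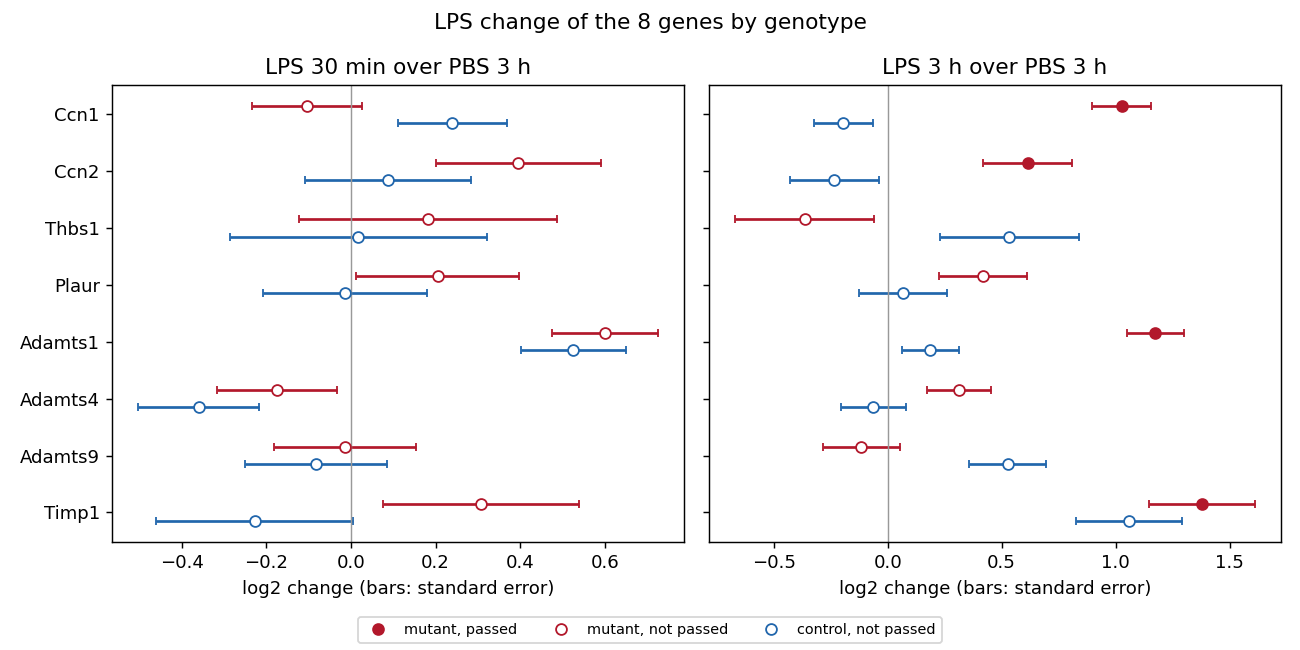
Log2 change after LPS relative to PBS at 30 min and at 3 h for each of the 8 genes (highest-mean probe set), mutant (red) above control (blue), with bars for the standard error of the fit and filled points for changes that passed the test. Adamts1 has nearly the same change in both genotypes at 30 min and 1.17 against 0.19 at 3 h, and Timp1 lies above 1 in both at 3 h.

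Adamts4, an aggrecanase, was dim, with a mean of 4.62 over all arrays, below the median of all probe sets of 4.85. It read 5.07, 4.78 and 5.31 in mutant LPS 3 h hearts, against 4.58, 4.79 and 4.23 in control LPS 3 h hearts and 4.72, 4.81 and 4.68 in mutant PBS hearts. It was called higher than in control LPS 3 h hearts (0.52, limma adjusted p = 0.0223) but not over mutant PBS (0.31, adjusted p = 0.124), and replicate 2 lay within the range of the controls. The call was lost without mutant replicate 3 (0.39, adjusted p = 0.117), control LPS 3 h replicate 1 (0.54, adjusted p = 0.058) or 3 (0.37, adjusted p = 0.0883), or both mutant replicates 1 and 3 (0.25, adjusted p = 0.479). Over mutant PBS it passed without mutant replicate 2 (0.45, adjusted p = 0.0212), where 32.8% of all probe sets did, and it was 0.04 without replicates 1 and 3. Averaged over its probe sets, Adamts4 was called higher over mutant PBS with all arrays (0.46, limma adjusted p = 0.0394). Its second probe set, 1455965_at, read 4.89, 5.42 and 5.45 in mutant LPS 3 h hearts, against 4.08, 5.34 and 4.39 in control LPS 3 h hearts (0.65, adjusted p = 0.075), and the difference was 0.81 without mutant replicates 1 and 3 (adjusted p = 0.189).

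Adamts9, which like Adamts1 cuts versican, passed no test in the main fit to all arrays. On 1437785_at it read 7.59, 7.52 and 7.56 in mutant PBS hearts, against 7.09, 7.03 and 7.20 in control PBS hearts. At 30 min after LPS it read 7.49, 7.49 and 7.65 in mutants, against 6.78, 7.33 and 6.97 in controls. Mutants lay above controls without overlap in both conditions, by 0.45 (SE 0.17, limma adjusted p = 0.815) and 0.52 (adjusted p = 0.817). At 3 h after LPS the groups overlapped, with 7.47, 7.61 and 7.25 in mutants and 7.99, 7.72 and 7.20 in controls. Its change over PBS at 3 h was -0.12 in mutants and 0.53 in controls (adjusted p = 0.641 and 0.225). Without control LPS 3 h replicate 3 the change in controls was 0.74 and passed (adjusted p = 0.0181), where 1.36% of all probe sets were called. The difference of effects was -0.64 (adjusted p = 0.145), and -0.73 without mutant LPS 3 h replicate 2 (adjusted p = 0.0433), where 23.6% of all probe sets were called. It was -0.48 without mutant replicates 1 and 3 (adjusted p = 0.461), where the change in mutants was 0.05 (adjusted p = 0.93).

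Another probe set of Adamts9, 1430352_at, followed a different course. It read 5.61, 6.15 and 6.54 in mutants at 30 min, against 5.25, 5.15 and 5.50 after PBS, and 5.76, 6.14 and 5.84 in controls at 30 min, against at most 5.21 after PBS. The changes were 0.80 and 0.84 without overlap (SE 0.35 each, limma adjusted p = 0.68 and 0.52). On this probe set the genotypes overlapped after PBS and at 30 min. The remaining one, 1431399_at, read 5.34, 5.43 and 5.67 in mutant PBS hearts, against 5.15, 5.31 and 5.17 in control PBS hearts, without overlap. At 30 min it averaged 5.55 in mutants and 5.57 in controls, with overlap. In controls it averaged 5.02 at 3 h after LPS, against 5.21 after PBS.

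Timp1, the metalloproteinase inhibitor, had the largest change over PBS at 3 h of the 8 genes in both genotypes with all arrays, and in mutants Adamts1 had a larger one (1.41) once replicates 1 and 3 were left out. It read 8.43, 7.89 and 8.44 in mutant LPS 3 h hearts, against 6.76, 7.07 and 6.80 in mutant PBS hearts. In control hearts it read 8.20, 7.88 and 7.43 at 3 h after LPS, against 7.19, 6.75 and 6.39 after PBS. The arrays did not overlap in either genotype. The change was 1.38 in mutants (SE 0.23, 2.60-fold, limma adjusted p = 0.00203) and 1.06 in controls (SE 0.23, 2.08-fold, adjusted p = 0.0578).

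The difference of the Timp1 effects was 0.32 (SE 0.33, adjusted p = 0.584), so a genotype difference was not shown by limma. The 2 LPS 3 h groups overlapped and differed by 0.42 (adjusted p = 0.216), and by 0.06 without mutant replicates 1 and 3. In that fit the change over PBS was 1.02 in mutants (adjusted p = 0.0484) and 1.06 in controls (adjusted p = 0.0187), where 2.35% of all genes were higher in controls. On first-day arrays alone neither passed (adjusted p = 0.0994 and 0.0761). Without control LPS 3 h replicate 3 the control change was 1.26 and passed (adjusted p = 0.0134), where 1.36% of all probe sets were called. At 30 min the signal was 6.89, 7.05 and 7.61 in mutants, against 6.45, 6.62 and 6.58 in controls, without overlap (0.63, adjusted p = 0.959).

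Between genotypes at 3 h after LPS, 4 members were called higher in mutants, Ccn1, Ccn2, Adamts1 and Adamts4, where 9.75% of all genes were. Thbs1 was called lower, where 13.2% were. The arrays did not overlap for Ccn1, Ccn2 and Adamts1, as for 10.1% of all genes on the higher side. Without mutant replicates 1 and 3, only Ccn1 and Adamts1 were called in this comparison, with 2.69% of all genes higher, and the same 2 genes on first-day arrays, with 0.704% higher. This comparison and the one with mutant PBS use the same mutant LPS 3 h arrays. Both reduced sets keep only replicate 2 of them, so they are not separate checks. The difference of LPS effects at 3 h was called for 2 of the 8 members, both higher, against 0.0989% of all genes, or 0.89% without mutant replicates 1 and 3, where the same 2 were called. Before LPS and at 30 min 0 members were called between genotypes by limma, where 0.0165% of all genes were called in either direction in each comparison. By unadjusted p, 2 members were under 0.05 after PBS and 3 at 30 min, as were 6.32% and 5.27% of all genes. Array weights gave 1 call at 30 min (Adamts9), with 2.57% of all probe sets called. The fit to only the arrays compared gave 1 after PBS (Adamts9), with 0.726% of all probe sets called. Among all genes, 13.9% after PBS and 13.1% at 30 min were higher in mutants without overlap.

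At 30 min after LPS 0 members were called against PBS in either genotype, where limma called 0.0275% of all genes in mutants and 0.0934% in controls. By unadjusted p, 1 member was under 0.05 in mutants, Adamts1, and 2 in controls, Adamts1 and Adamts4, as were 5.38% and 7.46% of all genes. Array weights called the same genes, with 5.83% of all probe sets called in mutants and 9.37% in controls. The difference of the 30 min effects had 0 calls, 0 members under an unadjusted p of 0.05 and 0% of all genes called. Against 30 min, the 3 h hearts had 4 members called higher in mutants (Ccn1, Adamts1, Adamts4 and Timp1), where 15% of all genes were. They had 0 called lower, where 18.5% of all genes were. The Adamts4 call (0.49, adjusted p = 0.0215) was lost without mutant LPS 3 h replicate 3 or mutant 30 min replicate 2 or 3 (0.36 to 0.48, adjusted p = 0.0629 to 0.121). Thbs1 was called lower without mutant LPS 3 h replicate 2 (-0.99, adjusted p = 0.00343), where 36.1% of all probe sets were called. With mutant LPS 3 h replicates 1 and 3 left out, 2 members stayed called, Ccn1 (1.05, adjusted p = 0.00142) and Adamts1 (0.81, adjusted p = 0.00283), where 9.27% of all genes were higher, and Timp1 was at 0.71 (adjusted p = 0.122). In controls they had 1, Timp1 (1.29, adjusted p = 0.0118 by limma), where 1.06% of all genes were higher and 0.748% lower. The Timp1 call in controls was lost without control LPS 3 h replicate 2 or any 1 of the control 30 min arrays (1.24 to 1.32, adjusted p = 0.0510 to 0.0684). Control Ccn1 was not called in the main fit but did not overlap, at 7.57, 7.30 and 7.25 after 3 h, against 7.83, 7.75 and 7.85 after 30 min (-0.44, adjusted p = 0.118). Adamts1 did not overlap either (-0.34), as for 14.9% of all genes on the lower side. Ccn1 was called lower without mutant LPS 3 h replicates 1 and 3 (adjusted p = 0.0472), where 4.83% of all genes were. Array weights called Ccn1 (-0.52, adjusted p = 0.00801) and Adamts1 (-0.42, adjusted p = 0.00834) lower, with 15.5% of all probe sets called in either direction. Adamts9 was called higher without control LPS 3 h replicate 3 (0.82, adjusted p = 0.00691), where 2.34% of all probe sets were called. Its change was 0.61 without mutant LPS 3 h replicates 1 and 3.

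Other genes of the same families were read from 7 lists with 61 measured genes. Against mutant PBS, mutant LPS 3 h hearts had 4 of them higher and 11 lower, where 9.9% and 16.1% of all genes were, with a median of 0.05, close to that of all genes. Without mutant replicates 1 and 3 the counts were 2 higher and 2 lower, where 5.29% and 6.06% of all genes were, and on first-day arrays 0 and 0. In controls 0 of 61 were called at 3 h (2 higher without those 2 mutant arrays). Among CCN and thrombospondin relatives, Comp, a cartilage thrombospondin, rose by 0.84 (limma adjusted p = 0.0187) and Thbs2 fell by 0.45, and the other 6 did not pass. Among 6 other matricellular genes Fbln5, an elastic fibre protein, fell by 0.82 (adjusted p = 0.00588). Neither list had a call once mutant replicates 1 and 3 were left out, when Comp was at 0.48, Thbs2 at -0.24 and Fbln5 at -0.40.

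Of 12 other ADAMTS proteases, Adamts8 rose by 0.62 (limma adjusted p = 0.00495) and Adamts7 by 0.47, Adamts5, an aggrecanase, fell by 0.92 (adjusted p = 0.0118), and 9 did not pass. Of 11 matrix metalloproteinases and TIMPs, Mmp24 rose by 0.34 and Mmp11 fell by 0.39. Of 5 plasminogen activation genes 0 passed, and of 9 substrates and receptors Itgav fell by 0.69 and Itgb5 by 0.54. Of those named, Adamts5 alone passed in the fit without mutant replicates 1 and 3 (-1.05, adjusted p = 0.0425), while Adamts8 was at 0.42 (adjusted p = 0.066) and Itgav at -0.41 (adjusted p = 0.152). The list of genes that respond to YAP and TEAD, as Ccn1 and Ccn2 are known to, had 0 higher and 5 of 10 lower in mutant LPS 3 h hearts. Axl, a receptor kinase, fell by 1.63, Amotl2 by 1.56 and Ajuba by 1.44 (limma adjusted p = 0.018, 0.00959 and 0.00273). With those 2 arrays left out, that list had 1 higher and 1 lower (Ajuba, -1.20, adjusted p = 0.0203), with Axl at 0.06 and Amotl2 at -0.49, and with its median at -0.06 in place of -0.60.

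Between genotypes at 3 h after LPS, 5 of the 61 were higher in mutants and 7 lower, where 9.75% and 13.2% of all genes were, against 1 higher and 0 lower without mutant replicates 1 and 3. Adamts10 (0.96), Mmp14, the membrane protease that activates pro-MMP2 (0.63), and Adamts8 (0.62) led the higher genes (limma adjusted p = 0.0197, 0.0178 and 0.00817). Timp3, the matrix-bound inhibitor of ADAMTS proteases, was lower by 0.78 on the log2 scale in mutants, at 9.84 in mutant and 10.6 in control LPS 3 h hearts (adjusted p = 0.0203). Cd47, the receptor of thrombospondin-1, was at 9.79 in mutant and 10.7 in control LPS 3 h hearts (-0.90, adjusted p = 0.0192). None of these 5 passed without mutant replicates 1 and 3, when Adamts10 was at 0.09, Mmp14 at 0.36, Adamts8 at 0.42, Timp3 at -0.08 and Cd47 at -0.01. The differences of LPS effects had 0 calls among the 61 genes at either time.

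Markers of several cell types moved in the same mutant LPS 3 h arrays, where 9.9% of all genes were higher and 16.1% lower than after PBS. Of 6 smooth muscle and pericyte markers 0 were called there (median 0.10), and of 6 cardiomyocyte markers 1 was lower (median -0.11). All 6 endothelial markers were lower than after PBS, and their summed signal was 1353 to 2837 in mutant LPS 3 h hearts, against 3500 to 3633 in mutant PBS hearts. It was 2133 to 2913 in control LPS 3 h hearts, against 2689 to 2802 in control PBS hearts. Of 4 measured neutrophil markers 2 were higher, with sums of 742 to 4851 in mutant LPS 3 h hearts, against 199 to 524 in mutant PBS hearts, and 451 to 810 in control LPS 3 h hearts, against 113 to 350 in control PBS hearts. Their receptor marker Cxcr2 stayed below the median of all probe sets. Of 6 fibroblast markers 3 were lower, with sums of 8093 to 13083 in mutant LPS 3 h hearts, against 13650 to 15194 in mutant PBS hearts. Of 6 platelet markers Ppbp was lower (-2.77, limma adjusted p = 0.0121) and 5 did not pass, with sums of 717 to 1590 in mutant LPS 3 h hearts, against 732 to 1396 in mutant PBS hearts. Of 6 macrophage markers Mrc1 was higher (0.43, adjusted p = 0.0149) and 5 did not pass, with sums of 3565 to 4586 in mutant LPS 3 h hearts, against 3809 to 4499 in mutant PBS hearts. In the fit without mutant replicates 1 and 3, 0 endothelial, 0 fibroblast and 0 neutrophil markers were called in that comparison, 2 macrophage markers (Mrc1 and C1qa) were higher and Ppbp was lower. The endothelial median was then -0.44 in place of -1.06, the fibroblast median -0.25 in place of -0.46 and the neutrophil median 0.83 in place of 1.69. The part of these cell types in the results on the 8 genes was not tested.

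Likeness was measured as the root mean square difference, in log2 units, between the deviations of 2 genes from their own means over the arrays, among 11794 genes at or above the median. Over all 18 arrays Adamts1, whose own SD was 0.42, had Gm26910 (0.255), A330023F24Rik and Il1b (0.266) as its nearest genes. Over the 16 arrays without mutant LPS 3 h replicates 1 and 3 they were Klf2 (0.214), 6330409D20Rik and Ier2 (0.230), with an own SD of 0.38. For Ccn1 the nearest were Prpf31 (0.273), Tpcn1 and Birc6 over 18 arrays, and Acly (0.223), Ier2 (0.226) and Carmil3 over 16. None of these names recurs between both sets of arrays for either gene. Ier2, an immediate early gene, stood near both genes over 16 arrays. For Timp1 the nearest over 18 arrays were Mustn1 (0.233), Mt1 (0.262), a metallothionein, and Sult1a1 (0.265), and Sult1a1 (0.221) led over 16. For Plaur, F2r, the thrombin receptor, and Amn1 were among the nearest 3 in both. These are descriptions of arrays that share groups and processing.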

How the data were processed

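Hearts were profiled on 18 arrays. The deposited log2 values came from RMA, per the submitters' processing notes, in a version not given in the sources used here. RMA compresses dim signals. Other fields used, the hybridization day and array lot, are text of the deposited experiment records and hold no measurement. Array lots differed between most groups and were not fitted; the LPS 30 min arrays shared 1 lot, and mutant PBS replicate 3 that of the control PBS arrays. After removal of 64 control probe sets, limma 3.58.1 in R 4.3.3 fitted the means of the 6 groups to 45037 probe sets (12 residual and 3.83 prior degrees of freedom), with Benjamini-Hochberg adjustment within each comparison at 0.05. SE values are those of the fit. The code was tested on simulated data. The annotation named 1 gene for 34945 probe sets, several for 932 and none for 9160. The genes named are the 8 members, up to 3 per list and comparison with the largest called change, and the 3 nearest genes. Others named within a count of 5 or fewer, and markers, were named after their values were seen. The members and lists were chosen with earlier results of these data known. Settings tried were quantile normalization, median centring, array weights, trended eBayes, a dim filter, the arrays compared alone, hybridization day, the replicate block, the mean of a gene's probe sets and leaving out arrays. Precision is limited by the number of arrays. Listed genes with no probe set of a single symbol were not analysed here.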

Additional observations from a re-analysis of the deposited data

Results flagged for a closer look

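The LPS effect at 3 h differed between genotypes for Ccn1 and Adamts1, tested as the interaction of genotype and treatment by limma. For Ccn1 it was 1.22 larger in mutant than in control hearts on the log2 scale (SE 0.18, adjusted p = 0.0261). All 3 mutant LPS 3 h arrays lay above all 3 mutant PBS arrays. For Adamts1 it was 0.99 larger (SE 0.18, adjusted p = 0.0451), and again all 3 mutant LPS 3 h arrays lay above all 3 mutant PBS arrays. Such a lack of overlap held for 16.5% of all genes on the higher side, and it does not compare the genotypes. Replicates 1 and 3 of the mutant LPS 3 h arrays are those with the wide 3' to 5' gap and a hybridization day of their own. The differences of effects for both genes have adjusted p-values that pass in some alternatives only.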

How the results depend on the processing

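The 16 calls of single genes were each recomputed under the alternatives, 274 values in all, of which 194 kept the call, 80 lost it in the same direction and 0 reversed. In the main fit to all arrays, calls among the 8 genes numbered 4 (mutant LPS 3 h over PBS), 0 (control), 4 (mutant 3 h over 30 min), 1 (control 3 h over 30 min), 5 (mutant over control at 3 h), 2 (difference of effects at 3 h) and 0 elsewhere. Leaving out 1 array gave 3 to 6, 0 to 2, 3 to 5, 0 to 2, 2 to 5 and 0 to 5, and 0 in the other 5 comparisons. The highest, 6 and 5, came without mutant LPS 3 h replicate 2, where 14773 and 10621 of all 45037 probe sets were called, against 9522 and 47 with all arrays, and the 2 without mutant LPS 3 h replicate 3.

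Array weights gave 1 (mutant 30 min over PBS), 2 (control 30 min over PBS), 3 (control 3 h over 30 min, Ccn1 and Adamts1 lower and Timp1 higher), 1 (control 3 h over PBS) and 1 (genotypes at 30 min). Of all probe sets they called 2627, 4221, 6967, 2469 and 1156 there, against 22, 64, 653, 225 and 4 in the unweighted fit. Median centring gave 1 for the difference of effects and 1 for control 3 h over PBS, with 0.155% and 0.522% of all probe sets called. Trended, robust eBayes gave 1 for the difference of effects, with 0.0311% of all probe sets called. First-day arrays alone gave 2 over mutant PBS, 2 between genotypes at 3 h and 0 for the difference of effects. Hybridization day as a block gave 2 over mutant PBS, 2 between genotypes at 3 h and 1 in control 3 h over PBS. Of all probe sets it called 4.68%, 1.35% and 1.53% there, against 21.1%, 18.4% and 0.5% in the main fit. The mean of a gene's probe sets gave 1 in control 3 h over PBS and 1 for the difference of effects, with the share of all genes not counted. The dim filter gave 1 in control 3 h over PBS, with 1.01% of the probe sets kept called. Fitting only the arrays compared, with few degrees of freedom, gave 0 for the difference of effects, 0 between genotypes at 3 h, 0 over mutant PBS and 0 for mutant 3 h over 30 min. It gave 2 for control 30 min over PBS, 1 for mutant 30 min over PBS and 1 between genotypes after PBS. Of all probe sets it called 8.02%, 1.79% and 0.726% there, against 0.142%, 0.0488% and 0.00888% in the main fit. Without mutant LPS 3 h replicates 1 and 3 there were 3 calls in control 3 h over 30 min (Ccn1 lower, Adamts9 and Timp1 higher), 2 in mutant 3 h over 30 min, 2 between genotypes at 3 h, and 1 each in mutant 30 min, control 30 min and control 3 h over PBS. The cause of these changes was not tested, apart from the fewer arrays.

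Of 45 pairs of same-numbered arrays of different groups, 10 had deviations correlated over 0.1 (median 0.02, from -0.32 to 0.36), against 8 of 90 pairs with other numbers (median 0.00, from -0.38 to 0.42). Same-numbered pairs passed 0.1 more often, so these values do not exclude a pairing by number. The main fit took no pairing, and a fit with a replicate block was also run. With the replicate block, 4 members were called between genotypes at 3 h in place of 5, Ccn2 being lost (adjusted p = 0.0518), 2 for the difference of effects, 4 over mutant PBS and 0 in control 3 h over PBS. Of all probe sets it called 17.9%, 0.0466%, 21.1% and 0.44% in these comparisons.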
